A study of Arabidopsis thaliana with 14 samples.

Results

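Leaf RNA of the CAMTA5 mutant line camta5 was compared with that of wild-type Col-0 after 14 days of drought, on 6 of the 14 ATH1 arrays of the series. The arrays were chosen by their titles, which gave 3 biological replicates of camta5 in drought and 3 of Col-0 in drought. The design text calls the mutant line camta5-a. The camta5 plants and the wild type both have the Col-0 background, were 1 month old and had leaves as the sampled tissue, and 250 ng of total RNA was labelled per array. Both genotypes were also sampled with water (3 arrays each). These 6 arrays, which share none with the drought groups, were used as a second look at the same genotype difference. The watered arrays also entered the fit, and so its estimate of the spread. The remaining 2 arrays hold a CAMTA5 overexpression line (OX-5, written OX5) in drought and entered the fit only for its estimate of the spread. The labels give neither the lesion of camta5-a nor other mutant lines of the gene. They call the replicates biological without saying whether these came from separate plants or pots, so the p-values cover only the spread between these samples.

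CAMTA proteins are calmodulin-binding transcription activators, DNA-binding factors that can be regulated by calcium through calmodulin. The family in Arabidopsis is best known from the work on cold, salicylate and wounding responses, in which CAMTA factors act at promoters with a short CG-rich core. Leaves under drought commonly accumulate dehydrins and other protective proteins, lose photosynthetic transcripts and often make anthocyanins, red pigments at the end of the flavonoid pathway.

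The targeted gene was read first. CAMTA5 (AT4G16150) gave signals of 265, 284 and 306 in the camta5 drought arrays, against 232, 146 and 217 in the Col-0 drought arrays. All 3 camta5 arrays lay above all 3 Col-0 arrays, by 0.51 ± 0.22 on the log2 scale (SE), and the difference did not pass the test (adjusted p = 0.291). With water the signals were 191, 172 and 154 in camta5 and 115, 179 and 152 in Col-0. How the probes lie relative to the lesion was not stated in any source used, so the CAMTA5 signal is no check of the genotype labels, and camta5 below means the arrays labelled camta5. Of the other 2 family members measured, CAMTA4 (AT1G67310) had 619, 715 and 563 in camta5 drought arrays and 806, 1047 and 839 in Col-0 drought arrays, a log2 difference of -0.49 ± 0.17 (adjusted p = 0.169). CAMTA6 (AT3G16940) differed by 0.03 ± 0.19 (adjusted p = 0.963), and its arrays overlapped.

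Across probe sets, Spearman coefficients were 0.950 to 0.962 among the camta5 drought arrays, 0.950 to 0.964 among the Col-0 drought arrays and 0.920 to 0.960 between the groups. RNA quality was read from control probes at both ends of a transcript, for which a higher 3'/5' ratio means a greater loss of the 5' end. For actin the ratio was 24.5, 27.7 and 29.3 in camta5 drought and 35.7, 35.6 and 29.6 in Col-0 drought, and for GAPDH it was 3.26, 2.43 and 2.93 in camta5 and 3.59, 3.77 and 2.76 in Col-0. The actin ratio was thus lower in every camta5 drought array, and its part in the results below was not tested. One watered array, camta5 water replicate 1, has a genotype entry reading wild type against its title. It was grouped by title, and what rests on it is given with and without it. Of 48 listed markers of leaf mesophyll and of other organs and cell types, 7 were measured and none was called. With 1.46% called over all tested probe sets, this count says little about the mix of cells. The leaf gene RCA, Rubisco activase, gave 29871 to 35950 in camta5 and 30368 to 33508 in Col-0, and the root gene PYK10 gave 64.1 to 115 in camta5 and 61.1 to 88.5 in Col-0. The guard cell gene FMA differed by 0.14, the flower and pollen genes AGL18 and AGL66 had a list median of -0.10, and the trichome genes GIS and TRY stood at -0.48 and 0.44 (no seed or vascular marker was measured).

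After drought 228 of 15646 tested probe sets differed between camta5 and Col-0 (1.46%), 159 of them higher (1.02%) and 69 lower (0.441%) in camta5. A difference was called at a limma p-value under 0.05 after Benjamini-Hochberg adjustment over all tested probe sets. Before adjustment 2345 had a p under 0.05 (15%). The differences called higher ran from 0.59 to 4.28 on the log2 scale with a median of 1.29, and 125 of them were at least 2-fold. Those called lower ran from -4.13 to -0.66 with a median of -1.26, and 46 were at least 2-fold. The largest rises of all, up to 4.28, belong to probe sets that have no gene in the annotation used here. Exactly 1 gene was named for 72 of the higher and 34 of the lower probe sets, which is 106 of 8551 such probe sets (1.24%). In bulk leaf RNA, fewer cells of a type and less RNA per cell cannot be told apart.

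**Figure D1:**
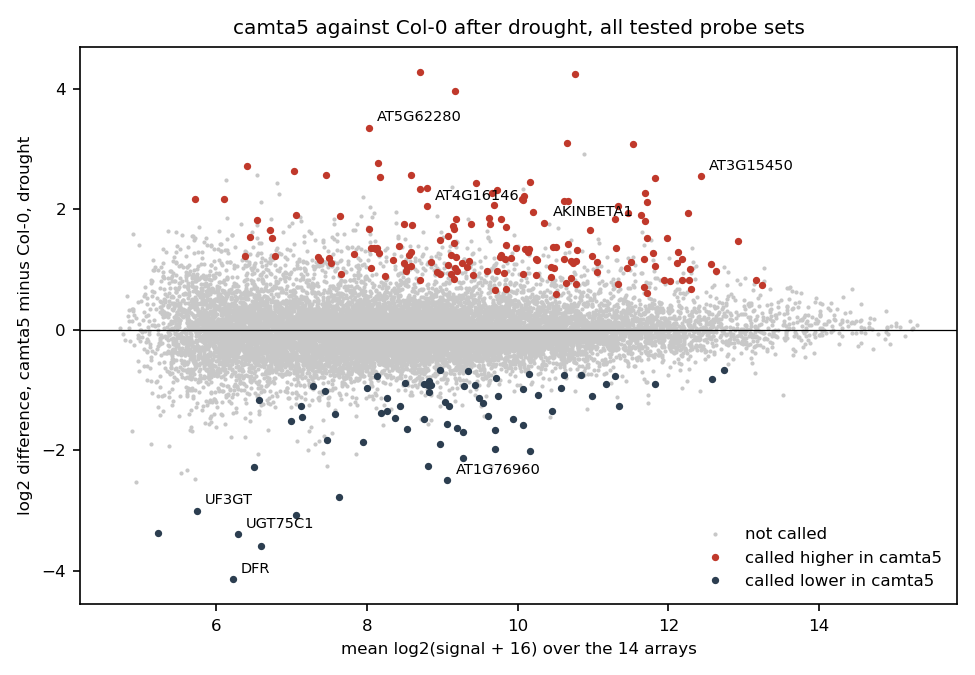
Difference between camta5 and Col-0 after drought (log2, vertical axis) against the mean log2(signal + 16) over the 14 arrays (horizontal axis), 1 point per tested probe set. Red points are the 159 called higher in camta5 and dark blue points the 69 called lower. The anthocyanin genes DFR, UGT75C1 and UF3GT lie at the bottom left, and the energy-sensing kinase subunit gene AKINBETA1 among the rises at medium signal.

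How firmly these counts stand depends on single arrays. Without Col-0 drought replicate 3 the count was 84 (66 higher, 18 lower), without camta5 drought replicate 3 it was 130 (108 higher, 22 lower), and without Col-0 drought replicate 1 it was 552 (335 higher, 217 lower). A fit of the 6 drought arrays alone called 9 probe sets, all higher in camta5. Among them 3 carry a gene name, namely AKINBETA1 (adjusted p = 0.0489), AT5G65660 (adjusted p = 0.0489) and AT5G24570 (adjusted p = 0.0427). The 3 Col-0 drought arrays spread unevenly in the called probe sets. Of the 159 higher in camta5, Col-0 drought replicate 3 was the Col-0 array farthest from camta5 in 81, replicate 2 in 56 and replicate 1 in 22. Of the 69 lower, it was again replicate 3 in 44, replicate 2 in 16 and replicate 1 in 9.

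Genes of flavonoid and anthocyanin synthesis were among the largest named falls. Of 35 genes listed 7 were measured, and 4 fell in camta5 while none rose, against 0.441% of all tested probe sets called lower. All 7 differences were negative, with a median of -1.24, against -0.03 over all tested probe sets. In 5 of the 7 the camta5 drought arrays all lay below the Col-0 drought arrays, as they did in 10.2% of all tested probe sets. This list was already known to hold low genes from earlier results of these data. DFR, UGT75C1 and UF3GT passed the filter only through Col-0 drought arrays. All their other arrays lay below the 40th percentile of the array. Genes that pass in this way can hardly come out higher in camta5, so these counts are no support for a fall of the group.

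DFR, which encodes the dihydroflavonol reductase that opens the branch to anthocyanins, gave 49.7, 45.4 and 47.5 in camta5 drought arrays, against 352, 606 and 5963 in Col-0 drought arrays. The camta5 arrays were nearly equal, but below the 40th percentile of their arrays (67, 66 and 67.5), where a level has little precision. The size of the fall is therefore uncertain too. The Col-0 arrays spread over more than an order of magnitude with replicate 3 at the top. The difference was -4.13 ± 0.72 (adjusted p = 0.0107), and it was -2.92 without Col-0 drought replicate 3 and -4.92 without replicate 1, called in both. With water DFR stood at 34.6, 11.6 and 49.3 in camta5 and at 2.42, 5.95 and 5.20 in Col-0, so the watered arrays run the other way, near the floor of the signal.

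UGT75C1 (AT4G14090) and UF3GT add sugars to the anthocyanin core. UGT75C1 had 56.1, 53.3 and 11.4 in camta5 drought arrays, against 243, 283 and 2008 in Col-0 drought arrays (-3.39 ± 0.67, adjusted p = 0.0196). UF3GT had 33.3, 36.5 and 14.4 in camta5 drought arrays, against 134, 187 and 1298 in Col-0 drought arrays (-3.00 ± 0.65, adjusted p = 0.0342). The camta5 drought values of both genes also lay below the 40th percentile of their arrays, so the sizes of these falls are uncertain. For both, the top array was again Col-0 drought replicate 3. Without it UGT75C1 was at -2.43 (adjusted p = 0.0691) and UF3GT at -2.02 (adjusted p = 0.148), and without camta5 drought replicate 3 their adjusted p was 0.094 and 0.132. UF3GT was also no longer called without camta5 drought replicate 1 or 2 or Col-0 water replicate 2 (adjusted p = 0.0527 to 0.0624).

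The fourth called member, UGT89C1 (AT1G06000), encodes a flavonol rhamnosyltransferase, which acts on the pale flavonols and not on anthocyanins. Its signals were 121, 92.4 and 206 in camta5 drought arrays and 249, 269 and 436 in Col-0 drought arrays, a difference of -1.12 ± 0.25 (adjusted p = 0.0396). Whether this call holds with an array left out was not looked at. With water they were 406, 372 and 419 in camta5 and 593, 567 and 512 in Col-0, and the groups did not overlap there either. Besides, UGT78D2 and UGT78D1, which also put sugars on flavonols, were at -0.66 (adjusted p = 0.211) and -0.78 (adjusted p = 0.229). CHIL, a chalcone isomerase-like protein gene at the start of the pathway, was at -1.24 (adjusted p = 0.361), with 233, 69.4 and 66.5 in camta5 and 200, 93.7 and 964 in Col-0. These last 3 did not pass the test, and in each of them the highest of the 6 drought arrays was Col-0 replicate 3.

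**Figure D2:**
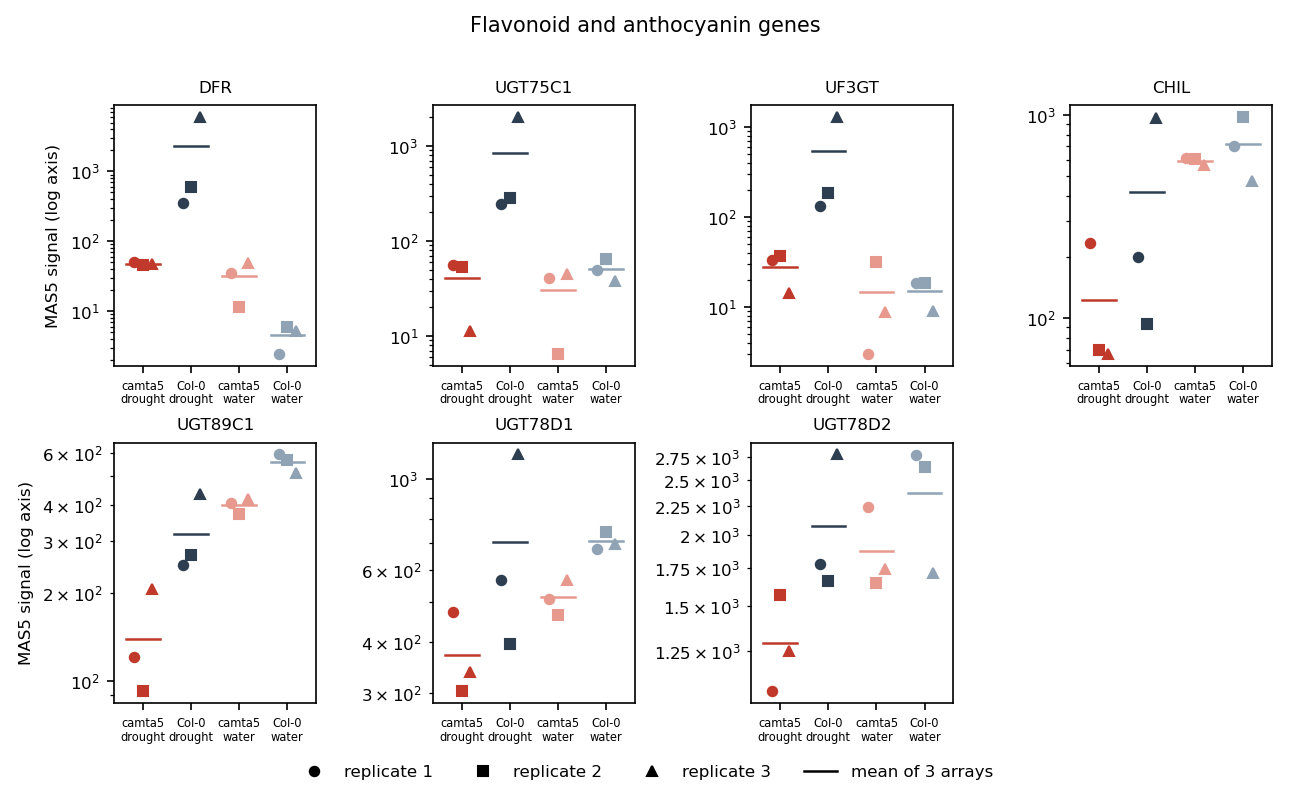
Signals of the 7 measured flavonoid and anthocyanin genes in each array (MAS5 signal, log axis), with camta5 left of Col-0 for drought and for water. Points are single arrays, shaped by replicate number, and bars are means of 3 arrays. Replicate 3 is the top Col-0 drought array in all 7 panels. The 3 camta5 drought arrays of DFR lie between 45.4 and 49.7, below the 40th percentile of their arrays.

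The 10 largest rises of named genes came from several functions. AT5G62280 gave 1004, 296.9 and 497 in camta5 drought arrays, against 91.8, 31.9 and 13.5 in Col-0 drought arrays, a difference of 3.36 ± 0.46 (adjusted p = 0.00305). It was also higher with water in each array, at 364, 452 and 554 in camta5 and 80.1, 168 and 191 in Col-0. AT5G43180 gave 143, 275 and 500.1 in camta5 and 39.6, 27.2 and 19.0 in Col-0 (2.71 ± 0.40, adjusted p = 0.0038). In both genes the camta5 drought arrays differ severalfold among themselves, as do the Col-0 drought arrays of AT5G62280, and the groups still do not overlap. The Col-0 drought values of AT5G43180 lay below the 40th percentile of their arrays.

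AT4G21870, which encodes a protein of the HSP20-like chaperone family, had 745, 879 and 1467 in camta5 drought arrays, against 163, 231 and 91.5 in Col-0 drought arrays (2.58 ± 0.38, adjusted p = 0.00394). AT3G15450 encodes a protein annotated as aluminium-induced-like. It had 6920, 5198 and 4549 in camta5 drought arrays, against 1805, 795 and 543 in Col-0 drought arrays (2.55 ± 0.33, adjusted p = 0.00196). Among the watered plants it stood at 9067, 12611 and 9347 in camta5 and at 4551, 5123 and 7534 in Col-0, so its drought signal was below its watered one in both genotypes. AT4G27450, of the same protein family, was called as well, at 1.80 (adjusted p = 0.0371) in drought and 1.68 with water, and was picked out after its values were seen.

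AT5G44020, of the HAD superfamily of acid phosphatases, gave 1785, 519 and 955 in camta5 drought arrays, against 295, 123 and 114 in Col-0 drought arrays (2.46 ± 0.37, adjusted p = 0.00394). In the watered arrays it was close to level, at 2048, 2715 and 2471 in camta5 and 2006, 2018 and 1860 in Col-0 (0.29). M10 (AT2G41280), a late embryogenesis abundant protein gene of the kind made in drying tissue, had 106, 80.3 and 128 in camta5 and 23.6, 3.25 and 7.87 in Col-0 (2.18 ± 0.41, adjusted p = 0.0149). M10 was no longer called when Col-0 drought replicate 2 (adjusted p = 0.0524), Col-0 drought replicate 3 (adjusted p = 0.0674) or camta5 drought replicate 3 (adjusted p = 0.085) was left out.

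AT5G65660, of the hydroxyproline-rich glycoprotein family, had 2090.4, 1447 and 1407 in camta5 drought arrays, against 484, 361 and 385 in Col-0 drought arrays (1.95 ± 0.28, adjusted p = 0.00375). It was called under every alternative processing tried. AT5G59080 gave 1143, 913 and 1042 in camta5 and 500.2, 221 and 178 in Col-0 (1.86 ± 0.27, adjusted p = 0.0038). AT5G64190 gave 205, 131 and 135 in camta5 and 53.1, 38.6 and 8.72 in Col-0 (1.91 ± 0.33, adjusted p = 0.0107). The tenth of these genes, AT4G16146, is described with the neighbours of CAMTA5. Apart from M10, none of these 10 calls was lost by leaving out any 1 of the 14 arrays.

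**Figure D3:**
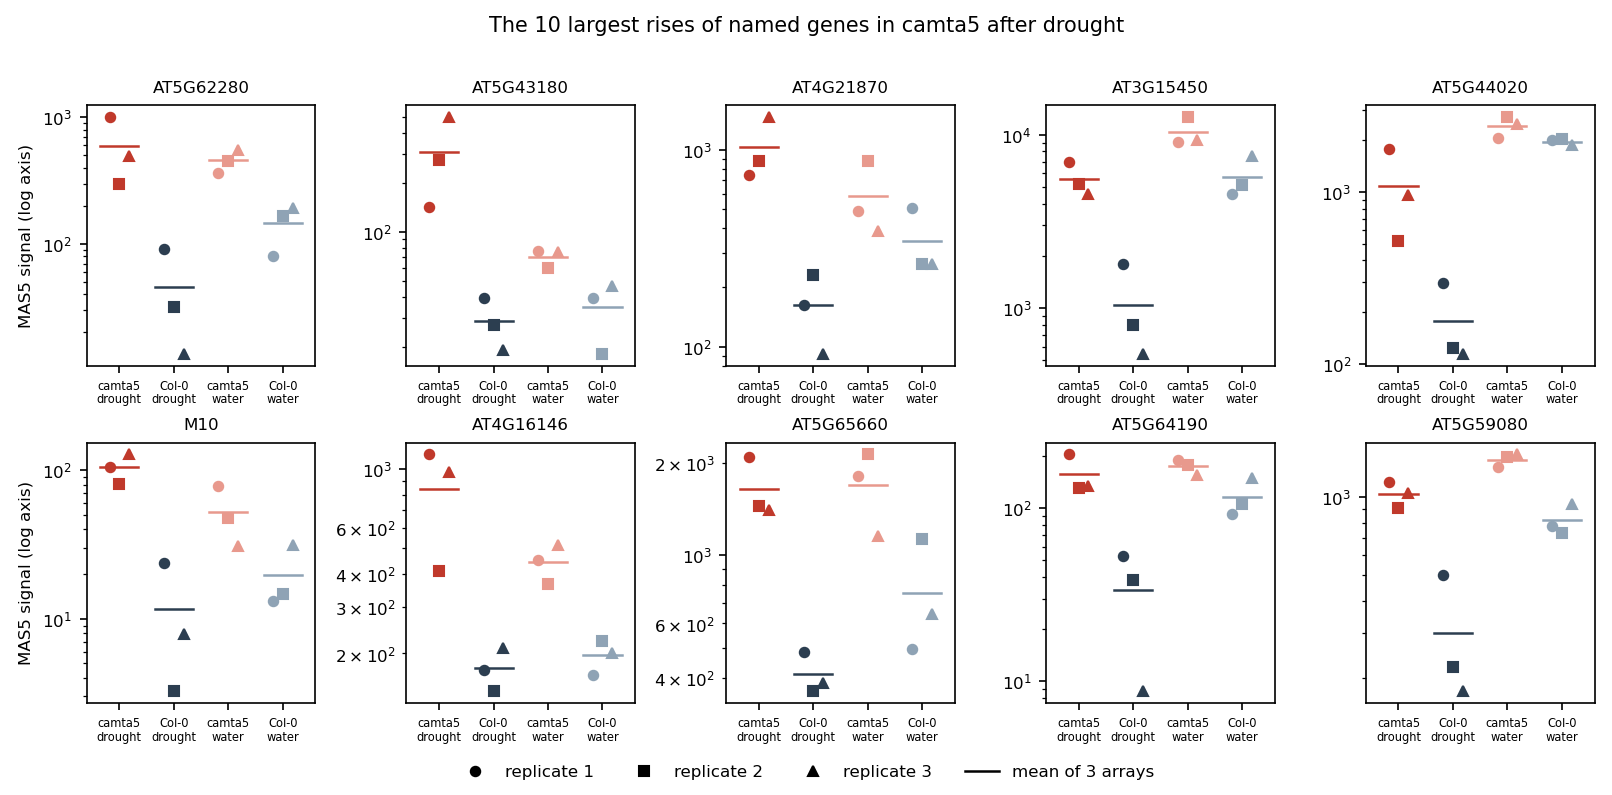
Signals of the 10 named genes with the largest rises in camta5 after drought (MAS5 signal, log axis), in the same layout as for the flavonoid genes. In all 10 panels the 3 camta5 drought arrays lie above the 3 Col-0 drought arrays, and with water the order of the means is the same.

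Sugar and energy genes moved in both directions. AKINBETA1 (AT5G21170) encodes a beta subunit of SnRK1, the kinase that senses low energy in plants. Its signals were 1720, 1333 and 1351 in camta5 drought arrays, against 514, 367 and 372 in Col-0 drought arrays, a rise of 1.78 ± 0.18 (adjusted p = 0.000387). This was the smallest adjusted p of any probe set naming 1 gene, and the call held under every alternative tried. With water it stood at 1520, 1921 and 1614 in camta5 and 834, 968 and 1131 in Col-0, a difference of 0.78, again with no overlap. It was the only called one of 3 measured members of a list of 10 sugar starvation genes, too few to set against the 1.24% called of all 1-gene probe sets. MCCA and IVD, which break down leucine when sugar is short, were at 0.75 (adjusted p = 0.253) and 1.00 (adjusted p = 0.339) and were not called. The median of the 3 was 1.00 in drought and 0.68 with water, against -0.03 and 0.01 over all tested probe sets.

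Of 15 SWEET and STP sugar transporter genes 9 were measured and 1 was called. Against 1.24% called of all 1-gene probe sets, 9 measured genes are too few to read a share from. SWEET4 fell in camta5, with 419, 607 and 569 in camta5 drought arrays, against 752, 2343 and 1865 in Col-0 drought arrays (-1.47 ± 0.31, adjusted p = 0.0291). Its call ended without any 1 of 4 drought arrays, namely Col-0 replicate 2 or 3 or camta5 replicate 1 or 3 (adjusted p = 0.0758 to 0.149). SWEET1 was at -1.48 (adjusted p = 0.057), SWEET17 at -0.71 and SAG29 (SWEET15) at -0.99, while SWEET2 was at 1.10 (adjusted p = 0.0621) and SWEET16 at 1.37. The list median of -0.03 was that of all tested probe sets, with members on both sides of it. Before adjustment 3 of the 9 were higher and 4 lower at a p under 0.05, where 15% of all tested probe sets had one in either direction. In 2 the camta5 drought arrays all lay above the Col-0 drought arrays and in 4 all below, as in 7.77% and 10.2% of all tested probe sets. SFP1, a sugar-porter family gene outside this list, rose by 0.86 ± 0.19 (adjusted p = 0.0358), a call that 13 of 27 alternatives ended, with adjusted p up to 0.242.

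Some called genes act in hormone and secondary metabolism. WES1 (GH3.5), which conjugates auxin to amino acids, gave 343, 285 and 236 in camta5 drought arrays, against 129, 66.1 and 109 in Col-0 drought arrays (1.40 ± 0.22, adjusted p = 0.00617). IAGLU, which joins auxin to glucose, gave 601, 774 and 809 in camta5 and 455, 212 and 171 in Col-0 (1.44 ± 0.31, adjusted p = 0.0314). Both enzymes attach auxin to another molecule. The WES1 call held with any array left out, while IAGLU was at 1.17 (adjusted p = 0.162) without Col-0 drought replicate 3, and its call was also lost without Col-0 drought replicate 2, camta5 drought replicate 2 or 3, Col-0 water replicate 2 or camta5 water replicate 1. In the list of IAA and GH3 genes 5 of 11 were measured with no call, and the median was 0.28. At 1.24% called over all 1-gene probe sets, no call is what a list of this size gives. Neither WES1 nor IAGLU was on that measured list.

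NAMT1, a methyltransferase acting on nicotinate, was uniform within each group, at 229, 236 and 231 in camta5 drought arrays and 50.5, 70.4 and 67.6 in Col-0 drought arrays (1.66 ± 0.30, adjusted p = 0.012). UGT74B1, a glucosyltransferase of glucosinolate synthesis, had 1793, 1728 and 1959 in camta5 drought arrays, against 1074, 715 and 922 in Col-0 drought arrays (1.02 ± 0.19, adjusted p = 0.0149). Its watered difference was -0.15, so the direction differed there. It was the only member called of 3 measured on a glucosinolate list of 20, and the only one called of 31 measured glycosyltransferases with a UGT symbol in the files (IAGLU, UF3GT, UGT75C1 and UGT89C1 carry other names there). Against 1.24% called over all 1-gene probe sets, 1 of 31 is close to the background, and 3 measured genes are too few to read a share from. Without Col-0 drought replicate 2 or 3 or camta5 drought replicate 3 its adjusted p was 0.0549 to 0.068.

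The other called genes with a symbol were smaller rises and a few falls. SDP1, the lipase that breaks down oil bodies, rose by 0.93 ± 0.18 (adjusted p = 0.0157), with 778, 725 and 795 in camta5 drought arrays, against 409.6, 429.9 and 351 in Col-0 drought arrays. GT2, a trihelix transcription factor, rose by 1.04 ± 0.22 (adjusted p = 0.0312), the Mediator subunit gene MED19A by 0.92 ± 0.17 (adjusted p = 0.0117) and the wall acetylation family gene TBL25 by 0.97 ± 0.17 (adjusted p = 0.00902). All 4 calls ended without Col-0 drought replicate 3, with adjusted p of 0.0552 to 0.0889. Those of SDP1 and GT2 ended without camta5 drought replicate 3 too (adjusted p = 0.0684 and 0.0784), and that of GT2 without Col-0 drought replicate 2, camta5 drought replicate 1 or camta5 water replicate 1. BETA-VPE, a vacuolar processing protease, had 791, 1362 and 832 in camta5 and 1856, 3619 and 4040 in Col-0 (-1.62 ± 0.29, adjusted p = 0.0108). The calmodulin-binding IQ-domain gene IQD30 fell by 1.44 ± 0.29 on the log2 scale (adjusted p = 0.0239) and the pectin methylesterase gene PMEPCRF by 0.74 ± 0.15 (adjusted p = 0.0238). These 3 falls also ended without Col-0 drought replicate 3, with adjusted p of 0.0665, 0.149 and 0.129, and without camta5 drought replicate 3, with 0.0505, 0.11 and 0.11. IQD30 and PMEPCRF were also lost without Col-0 drought replicate 2 (adjusted p = 0.089 and 0.0507), and PMEPCRF without camta5 drought replicate 2. The genes with a symbol were singled out after their values were seen.

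Beyond the anthocyanin genes, the 10 largest falls of named genes held genes of lipid transfer, of membrane transport and of defence. AT5G55450, of the lipid transfer protein family, gave 86.3, 29.1 and 54.0 in camta5 drought arrays, against 416, 285 and 780 in Col-0 drought arrays (-2.77 ± 0.43, adjusted p = 0.00483). AT4G34950, of the major facilitator family of transporters, gave 66.2, 119 and 151 in camta5 and 452, 379 and 467 in Col-0 (-1.86 ± 0.29, adjusted p = 0.00505). AT5G45630 gave 270.0, 301 and 327 in camta5 and 911, 1350.4 and 740 in Col-0 (-1.65 ± 0.28, adjusted p = 0.00902). For these 3 genes the call held with any array left out, and the watered differences were -1.28, -0.97 and -0.77.

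AT1G76960 had 840, 354 and 529 in camta5 drought arrays, against 1762, 2928 and 5863 in Col-0 drought arrays (-2.49 ± 0.47, adjusted p = 0.0149). CHI (AT2G43570), a chitinase of the kind made in defence, had 164, 326 and 477 in camta5 and 634, 1452 and 1635 in Col-0 (-1.90 ± 0.43, adjusted p = 0.0419). AT5G52390 had 44.4, 86.7 and 60.2 in camta5 and 172, 409 and 646 in Col-0 (-2.27 ± 0.48, adjusted p = 0.0294). In these genes the spread among Col-0 arrays was wide, with replicate 3 highest. The calls of all 3 ended without Col-0 drought replicate 3, with adjusted p of 0.0771, 0.19 and 0.167, and that of CHI ended in 16 of 27 alternatives. Leaving out camta5 drought replicate 3 also ended AT1G76960 (adjusted p = 0.0516) and AT5G52390 (adjusted p = 0.0951). The first was lost as well without camta5 drought replicate 2, and AT5G52390 without Col-0 drought replicate 2 or camta5 drought replicate 1.

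AT4G30650 encodes a small membrane protein of the low-temperature and salt responsive type. It had 46.8, 51.8 and 77.3 in camta5 drought arrays, against 108, 349.7 and 379.8 in Col-0 drought arrays (-1.83 ± 0.38, adjusted p = 0.0291). The related AT4G30660, the next gene in the RefSeq order, was called too, at -1.45 (adjusted p = 0.0149), and related copies can share probe signal. The call of AT4G30650 ended without Col-0 drought replicate 2 or 3 or camta5 drought replicate 1 or 2 (adjusted p = 0.0691 to 0.154). AT4G35335 was the only called gene with more than 1 probe set, and these disagreed, at -1.01 (adjusted p = 0.0423) and -0.09 (adjusted p = 0.903).

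Few genes that protect cells from drying were measured. Of 23 listed 7 were, and none was called, which at 1.46% called over all tested probe sets says little about the group. The LEA gene M10, of a similar protective kind but not on this list, rose by 2.18, as given above. The median was -0.47, and the arrays of the groups overlapped for all 7. COR47, a dehydrin gene, gave 14032, 11445 and 14836 in camta5 drought arrays, against 5150, 11531 and 4676 in Col-0 drought arrays (1.03, adjusted p = 0.109). DI21, induced by drought, gave 1648, 3416 and 1653 in camta5 and 1591, 18443 and 4478 in Col-0 (-1.27, adjusted p = 0.369). In both of them Col-0 drought replicate 2 stood apart from the other 2 Col-0 arrays. The linker histone gene HIS1-3 was at -0.47, LEA4-5 at -0.58, LTI30 at -0.17, COR15A at -0.61 and COR15B at 0.14. No gene of abscisic acid synthesis or signalling on the list was measured by a probe set naming it alone.

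Senescence and defence lists were also short, with 5 senescence, 4 jasmonate, 1 salicylate and 2 rapid stress genes measured, and their 0 calls are near what the 1.46% background gives. The senescence genes had a median of -0.54, among them SAG29, at 2600, 4121 and 2715 in camta5 drought arrays and 4228, 10007 and 5448 in Col-0 drought arrays. Its arrays did not overlap, yet its adjusted p missed the threshold. Of the rapid stress genes, STZ was at -0.86 and AT3G02840 at -0.64. The 4 measured jasmonate response genes pointed both ways, with THI2.2 at 1.16, PDF1.2b at 1.65, PDF1.2 at 0.40 and THI2.1 at -1.51. The salicylate defence gene GRX480 was at 0.92. GRX480 gave 457, 296 and 1616 in camta5 and 378, 221 and 364 in Col-0, with camta5 replicate 3 far above the rest.

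Of 8 measured cell wall loosening genes and 16 measured expansin and XTH genes none was called, a count that the share called over all tested probe sets (1.46%) also gives for lists of this size. TBL25 and PMEPCRF, described above, are called wall genes of other kinds. EXPA8 and XTH18, which loosen growing walls, were at 1.72 (adjusted p = 0.187) and 1.58 (adjusted p = 0.117). The drought arrays of EXPA8 overlapped, and XTH18 lay near the floor in Col-0 drought arrays, at 7.67, 10.7 and 6.73. The expansin-like gene EXLB1 was at -2.27 (adjusted p = 0.0619) and XTH32 at -1.43 (adjusted p = 0.053). EXLB1 gave 405, 862 and 855 in camta5 drought arrays, against 895, 7412 and 5263 in Col-0 drought arrays. The calmodulin-like gene CML41 was at 1.30 (adjusted p = 0.0643), with 146, 238 and 324 in camta5 and 79.5, 105 and 64.4 in Col-0. The carboxypeptidase-like gene scpl29 was at -0.66 (adjusted p = 0.0622). The measured 13 cytochrome P450, 9 glutathione transferase, 5 WRKY, 9 beta-glucosidase and 4 clock genes held no called member, again near the 1.46% background, with medians of -0.13, 0.00, 0.27, 0.34 and 0.32.

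Photosynthesis genes in the nucleus and in the plastid genome were read separately. The 7 measured nuclear genes had a median of 0.08 and none was called, PSBY being at 0.37. Of the 69 measured genes of the plastid genome none was called. Neither count is far from the 1.46% called over all tested probe sets. Their differences were positive in 56 and negative in 13, with a median of 0.45 in drought and 0.03 with water, against -0.03 and 0.01 over all tested probe sets. Before adjustment 18 of the 69 had a p under 0.05, all higher in camta5, where 15% of all tested probe sets had one in either direction, and in 14 the camta5 drought arrays all lay above the Col-0 drought arrays, as in 7.77% of all tested probe sets. Plastid transcripts are made in long units from 1 small genome, so these genes are not independent of each other.

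By complex, the differences were positive in 5 of 5 photosystem I genes, 11 of 15 photosystem II genes, 6 of 6 cytochrome b6f genes, 5 of 6 ATP synthase genes and 8 of 10 NADH dehydrogenase-like genes. The medians of these were 0.50, 0.44, 0.69, 0.41 and 0.57. Of the genes for plastid gene expression, 10 of 15 ribosomal protein genes were positive, with a median of 0.20, and 4 of 4 RNA polymerase genes, with a median of 0.27. The smallest adjusted p of the set was that of ndhK, a subunit of the NADH dehydrogenase-like complex, with 14901, 10178 and 7990 in camta5 drought arrays, against 6328, 5956 and 6526 in Col-0 drought arrays (0.77, adjusted p = 0.0734). The fatty acid synthesis gene accD had 10261, 2693 and 2297 in camta5 and 2014, 1228 and 1330 in Col-0 (1.41, adjusted p = 0.0985). In both the camta5 drought replicate 1 array was the highest, and rbcL, the large Rubisco subunit gene, stood at 0.68.

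With water no probe set differed between the genotypes in limma, and 1000 had an unadjusted p under 0.05 (6.39%). The test of the difference between the drought and the watered effect called none either, with 885 at an unadjusted p under 0.05 (5.66%), and 37 called without Col-0 drought replicate 1. Most called drought differences nevertheless kept their direction in the watered plants, whose arrays are not in the drought groups. The watered arrays did enter the fit's estimate of the spread, so they had a part in which probe sets were called. Probe sets with close watered replicates were favoured, which can raise the shares without overlap given below. Of the 159 probe sets higher in camta5 after drought 139 were above 0 with water (87.4%), against 51.1% of all tested probe sets. In 83 of them the watered camta5 arrays all lay above the watered Col-0 arrays (52.2%), against 7.87% of all tested probe sets, and in 1 they all lay below. Of the 69 lower probe sets 63 were below 0 with water (91.3%), against 48.9% of all, and in 28 the camta5 arrays all lay below the Col-0 arrays (40.6%), against 7.38% of all.

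The watered differences were smaller in size. Their median was 0.49 for the higher and -0.42 for the lower set, against 1.29 and -1.26 in drought, and 154 of the 159 and 68 of the 69 were larger in drought. Drought values picked both sets, so a larger drought median follows in part from that choice. Leaving out camta5 water replicate 1, the array with the conflicting genotype entry, left 145 of the 159 above 0 and 62 of the 69 below 0. Every remaining camta5 array then lay beyond every Col-0 array in 94 higher probe sets (59.1%, against 12.7% of all) and 35 lower ones (50.7%, against 11.5% of all). AT5G62280, AT3G15450, AKINBETA1, AT5G65660 and AT5G59080 are examples with no overlap in either watering regime, and DFR and IAGLU are exceptions, at 1.14 and -0.10 with water.

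**Figure D4:**
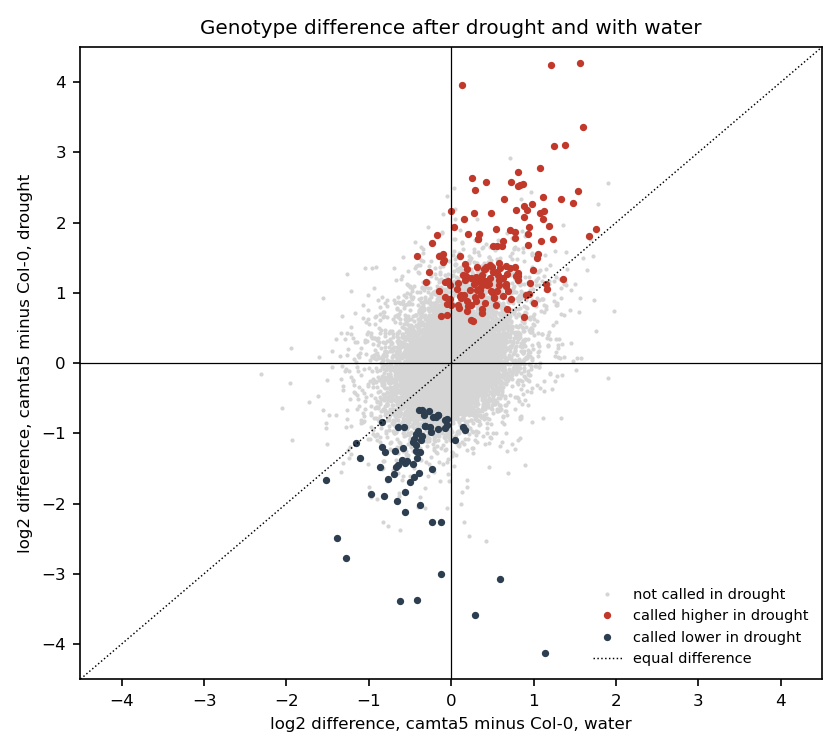
Difference between camta5 and Col-0 with water (horizontal axis) and after drought (vertical axis), both on the log2 scale, 1 point per tested probe set. Of the 159 red points, called higher in drought, 139 lie right of 0, and of the 69 dark blue points, called lower, 63 lie left of it. The dotted line marks equal differences, and DFR is the blue point at the lower right.

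The gene beside CAMTA5 was among the largest rises. AT4G16146, annotated as related to a cAMP-regulated phosphoprotein, is the gene next to CAMTA5 (AT4G16150) on the lower-numbered side in the gene order of the RefSeq assembly TAIR10.1. It gave 1136, 411 and 974 in camta5 drought arrays, against 173, 144 and 210 in Col-0 drought arrays (2.05 ± 0.29, adjusted p = 0.00359). With water it gave 453, 368 and 516 in camta5 and 165, 224 and 202 in Col-0 (1.11, unadjusted p = 0.00184). In both regimes its camta5 arrays all lay above its Col-0 arrays. The call held with any 1 array left out. The gene on the other side, AT4G16155, was at 0.16 (adjusted p = 0.795).

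Other genes near CAMTA5 were read in the same gene order. Within 100 genes on either side 69 probe sets naming 1 gene were tested and 4 were called (5.8%), against 1.24% of all 1-gene probe sets. These were AT4G16146, IAGLU (89 genes before CAMTA5), AT4G15700 (74 genes before, 1.27, adjusted p = 0.023) and AT4G16360 (29 genes after, -0.67, adjusted p = 0.0294). Within 400 genes 7 of 214 were called (3.27%), and on all of chromosome 4 it was 26 of 1235 (2.11%). The shares on the other chromosomes were 1.3% on chromosome 1, 0.886% on chromosome 2, 0.522% on chromosome 3 and 1.49% on chromosome 5. At an unadjusted p under 0.05, the share within 100 genes was 18.8%, against 13.8% of all 1-gene probe sets. With water the share at that threshold was 5.8% within 100 genes, against 5.86% of all 1-gene probe sets. These windows were chosen after the values were seen, and no test was made of them.

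**Figure D5:**
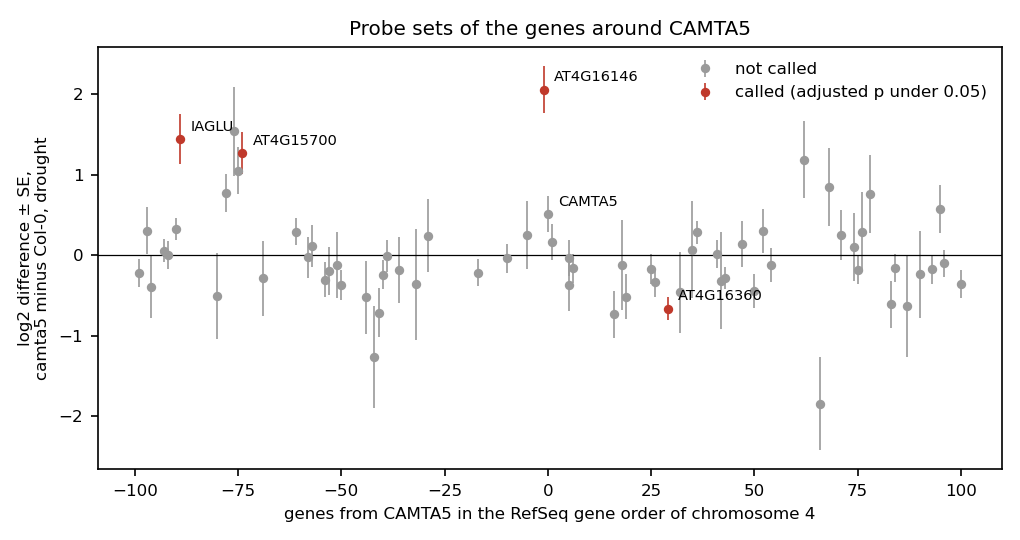
Difference between camta5 and Col-0 after drought (log2, with SE bars) for the 69 tested 1-gene probe sets within 100 genes of CAMTA5, by their place in the RefSeq gene order (horizontal axis, genes from CAMTA5). Red points are the 4 called ones, and AT4G16146, directly before CAMTA5, is the highest at 2.05.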

How the data were processed

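The files hold linear signal intensities that the authors computed with MAS5 in Affymetrix Expression Console (tools named in the submitters' processing notes). The values themselves show a scaling to a mean of 500 per array, with 2% trimmed at each end. Detection calls and scan batches were not used here. With arrays, precision is limited by their number. At most 2 values were identical between any 2 arrays.

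The analysis used log2(value + 16), a scale that understates changes of low genes. Apart from 64 control probe sets, 7100 probe sets were left out because they passed the 40th percentile of their array on fewer than 2 of the 14 arrays, and 15646 were tested. The model was fitted with limma 3.58.1 in R 4.3.3 to all 14 arrays, with a mean for each group of sample titles, a variance trend and no covariates. Tests were two-sided, with Benjamini-Hochberg adjustment over all tested probe sets. The procedure was run on simulated data in which a probe set had the same spread in every group. That run cannot show how the calls behave where the groups spread unequally, as for DFR.

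Gene names are those of the platform annotation, updated with RefSeq symbols (assembly TAIR10.1). Among the 22810 probe sets, 13513 named 1 gene (13436 matched), 503 several and 8794 none, the controls included. Of 39 gene lists with 625 entries, 266 entries were measured and 4 lists had none (abscisic acid, phosphate starvation, seed and vascular genes). The members, lists and windows were chosen with earlier results of these data known. The naming rule took CAMTA4, CAMTA5 and CAMTA6, the 10 largest rises and 10 largest falls among called 1-gene probe sets, up to 3 called members of each list or, where none was called, the 2 with the smallest p. All called genes with a symbol were added after their values were seen. Promoter sequences were not used here.

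The alternatives were offsets of 1 and 64, no filter or one at the 60th percentile, median centring, quantile normalization, moderation without trend or robust, array weights, only the 6 arrays, no OX5 arrays, the replicate number as a block, the other grouping of camta5 water replicate 1, stricter thresholds and leaving out each array.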

Additional observations from a re-analysis of the deposited data

How the results depend on the processing

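None of the 34 named calls followed through the alternatives reversed its direction. Changes of sign among uncalled genes, such as CAMTA6 with its small difference, were not counted. Against 228 calls in all, there were 144 without a variance trend (142 shared; 37 lower), 427 with array weights (223 shared; 258 higher, 169 lower), 9 with only the 6 arrays compared (9 higher, 0 lower) and 63 at an adjusted p under 0.01 (52 higher, 11 lower). The fit of 6 arrays has fewer samples and so a less certain spread, and 1914 probe sets had an unadjusted p under 0.05 in it. Leaving out 1 array gave 84 to 552 calls, 66 to 335 higher and 18 to 217 lower, and 0 to 37 for the difference between the drought and the watered effect. The lower set was 44 without camta5 water replicate 1. The share of higher calls, 69.7% with all arrays, was 60.4% with array weights and 83.1% without camta5 drought replicate 3, and no scaling moved it by more than 10 percentage points. Other settings left 166 to 245 calls.

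The replicate number as a block gave 245 calls (178 higher, 67 lower) and ended none of the 34 named calls. Same-numbered drought arrays correlated in their deviations at 0.228, 0.235 and -0.159, and differently numbered ones at -0.314 to 0.106. Whether the numbers pair the drought arrays cannot be told from so few arrays. Gene by gene, the settings were followed for these 34 calls only. Other called genes given above, such as UGT89C1, AT5G24570 and AT4G27450, are not among them. Only AT5G65660 and AKINBETA1 of the 34 named calls were made under every setting. The 6-array fit ended the other 32, and leaving out an array ended 18, all of them among those ended without Col-0 drought replicate 3. An offset of 1 ended UGT75C1, UF3GT, AT5G52390, CHI and NAMT1 (adjusted p = 0.0565 to 0.142). The other grouping of camta5 water replicate 1 ended CHI, SWEET4, GT2 and SFP1 (adjusted p = 0.0508 to 0.0725). An offset of 64 brought AT5G62280 to 2.52, AT5G43180 to 1.88, AT5G64190 to 1.2 and DFR to -3.42, and M10 was at 1.16 with an offset of 64 and 3.41 with an offset of 1. The planned promoter description was not run. Signals near the floor, such as those of DFR with water and in the camta5 drought arrays, give a level with little precision.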

Other observations

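The OX5 arrays after drought share their Col-0 drought arrays with the comparison above, so only levels are set side by side. DFR stood at 4.74 and 11.7 in the 2 OX5 arrays, UGT75C1 at 16.4 and 3.40 and UF3GT at 11.3 and 11.8, each below every Col-0 drought array of its gene, as the camta5 drought arrays were. AT4G16146, the gene next to CAMTA5, stood at 1938 and 1964 in OX5, above the 411 to 1136 of camta5 and the 144 to 210 of Col-0. AKINBETA1 stood at 6620 and 5417 in OX5, and AT3G15450 at 33109 and 28995, each above every camta5 and Col-0 drought array. CAMTA5 itself stood at 402 and 290 in OX5, against 265 to 306 in camta5 and 146 to 232 in Col-0.

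Other genes were high in OX5 and low in camta5 relative to Col-0 in drought. AT4G34950 stood at 3782 and 3675 in OX5, against 66.2 to 151 in camta5 and 379 to 467 in Col-0. CHI stood at 10228 and 13445 in OX5, against 164 to 477 in camta5 and 634 to 1635 in Col-0. WES1 and SDP1 were instead higher in both lines than in Col-0, WES1 at 2513 and 2506 and SDP1 at 1712 and 2209 in OX5. These genes were picked after their values were seen, and no test was made of the pattern.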
